A study of Stylophora pistillata with 24 samples.

Results

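Heat shock factor 1 (HSF1) is the gene that the deposited table annotates as heat shock factor protein 1-like (gene1) in the reef-building stony coral Stylophora pistillata. It was taken by its identifier and is 1 gene of the 33281 in the count table, 25735 of which had enough counts to be tested. Messenger RNA of whole organisms was sequenced in 24 libraries, which form 8 groups of 3. Shallow adults and shallow planulae (the free-swimming larvae) were taken from the natural reef at 5 m, and deep adults and deep planulae from the mesophotic reef at 45 m. All juveniles came from the shallow reef and lived in plastic settlement chambers on the reef, the control juveniles at 5 m and the translocated juveniles at 45 m, and both were collected at 8 days and at 60 days. The natural groups had no chamber, no juveniles of deep origin were analysed here, and no genetic change or added agent was part of the design. It is not stated whether the 3 libraries of each group trace back to different colonies or broods; the tests below weigh differences against the spread of these libraries only, part of which may be technical.

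HSF1 is the transcription factor that switches on chaperone genes when proteins unfold, for instance in heat. In mammals and flies it rests as a monomer bound by the chaperones HSP70 and HSP90, and on stress it forms trimers, enters the nucleus and binds heat shock elements in the promoters of its targets. Those targets encode HSP70, HSP90, DnaJ co-chaperones and BAG proteins, which in turn help to switch it off. Much of its regulation in mammals acts on the protein, by phosphorylation, acetylation and partner binding, which RNA levels do not show. The name of gene1 rests on the authors' annotation, and its protein sequence was not analysed here.

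The libraries held 13.57 to 35.78 M counts (median 24.32 M, with M for 1e6). HSF1 itself had 4681 to 96109 counts per library, so counting error was small beside the spread between libraries. Levels are given as counts per 1e6 counts (CPM) scaled with TMM, the trimmed mean of M-values. The TMM factors were 0.558 to 0.626 in shallow planulae, 0.676 to 0.909 in deep planulae and 0.895 to 1.36 in all other libraries. Levels of planulae against other stages, and of deep against shallow planulae, therefore lean on that scaling. As whole animals were used, the make-up of the samples moved with stage. The summed level of 70 genes named after motile cilia was 10100 to 15000 CPM in planulae and 2210 to 4190 CPM elsewhere. That of 59 tested genes with skeleton-forming names was 5020 to 9980 CPM in planulae and 626 to 4970 CPM elsewhere. That of 5 genes named after vitellogenin or zona pellucida was 23.7 to 442 CPM in planulae and 977 to 5670 CPM elsewhere. This last sum reached its highest value in 8-day translocated juveniles (3520 to 5670 CPM), so it is not taken as a measure of eggs. The sum of 8 genes named after myosin heavy chain, non-muscle ones among them, was 905 to 1590 CPM in planulae and 456 to 1350 CPM elsewhere. It was 1060 to 1350 CPM in 8-day translocated juveniles against 720 to 977 CPM in their controls, without overlap. Of single genes, 9.39% lay higher without overlap in that comparison. No defining gene of the nematocytes was found by name. The part of these shifts in the HSF1 values was not tested, and in such bulk samples a change in the share of cells that carry a transcript and a change in its amount per cell cannot be told apart.

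HSF1 RNA was abundant in planulae and in juveniles at 45 m, and low in adults and in 60-day control juveniles. In the 3 deep planula libraries it stood at 2566, 4463 and 4920 CPM. In 8-day translocated juveniles it was at 1810, 2958 and 4315 CPM. In shallow planulae it was at 3389, 1740 and 2420 CPM. These 3 groups had the highest means and their libraries overlapped one another throughout.

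The 60-day translocated juveniles were the most uneven group, with 853, 2061 and 3463 CPM, and the lowest of these lay inside the range of the 8-day controls. The 8-day control juveniles had 659, 1359 and 968 CPM. Deep adults had 612, 519 and 826 CPM. All 3 deep adults therefore lay above all 3 shallow adults, which had 387, 448 and 239 CPM. The 60-day control juveniles had 576, 244 and 243 CPM, so that 1 library of that group lay above every shallow adult.

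**Figure D1:**
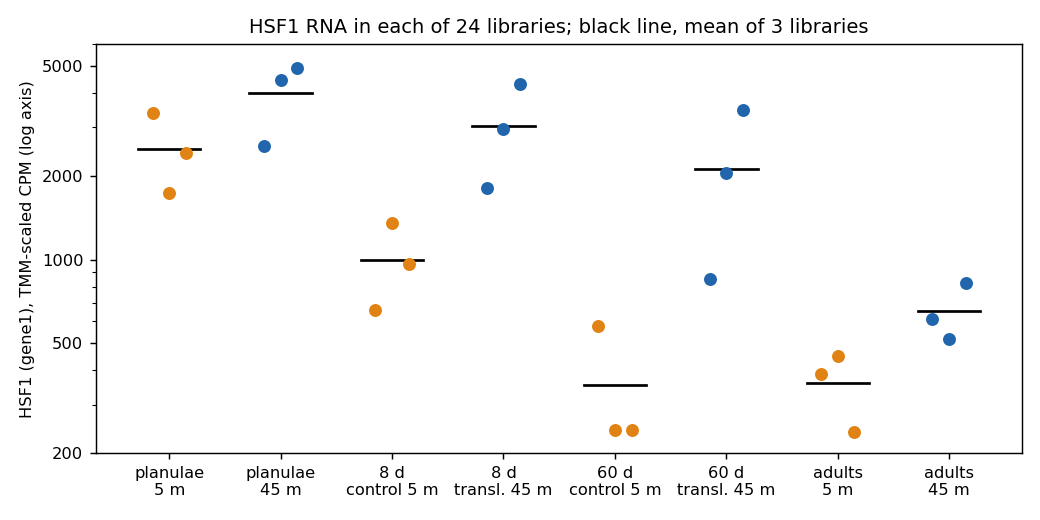
HSF1 (gene1) level in each of the 24 libraries as TMM-scaled CPM on a log axis, by group; orange points are libraries from 5 m, blue points libraries from 45 m, and black lines the mean of 3 libraries. Group means ran from 354 CPM in 60-day control juveniles to 3983 CPM in deep planulae, and the translocated juveniles lay above their controls at both ages.

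Ordered by group mean, deep planulae came first (3983 ± 1248 CPM, SD, n = 3), followed by 8-day translocated juveniles (3028 ± 1254), shallow planulae (2516 ± 829), 60-day translocated juveniles (2126 ± 1306), 8-day control juveniles (996 ± 351), deep adults (652 ± 157), shallow adults (358 ± 108) and 60-day control juveniles (354 ± 192). Per kilobase of its 2943 bases this was a range of group means from 120 to 1353 RPKM. None of the 7 neighbouring pairs in this order differed. The threshold was an adjusted p of 0.05; adjusted p here means the quasi-likelihood p of edgeR, corrected by Benjamini-Hochberg over every gene in the fit, wherever no other method is given. The nearest to it was 60-day translocated against 8-day control juveniles (adjusted p 0.16). Over all pairs of groups 15 of 28 passed, and the test over all 8 groups gave F = 15.18 with an adjusted p of 7.45e-06, where 78% of all genes tested passed as well. HSF1 ranked between 6th and 554th of the genes by CPM (median 88th), and between 24th and 1003rd per kilobase (median 225th of 25363 genes with a length).

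The spread within groups was part of the pattern. The coefficient of variation of HSF1 was 24.1% in deep adults and 61.4% in 60-day translocated juveniles. Among genes with at least 10 CPM it stood at the 45.4th percentile in deep adults and at the 93.1st in 8-day translocated juveniles. HSF1 was thus about as even as other genes in deep adults and more uneven than most in the other 7 groups, at the 72.2nd percentile or above.

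The 4 depth comparisons set 45 m against 5 m, and the mean of HSF1 was higher at 45 m in each. In juveniles grown for 60 days, HSF1 rose 6-fold with translocation (log2 fold change 2.59, SE 0.50, 95% interval 1.54 to 3.63, adjusted p 0.00836). All 3 translocated libraries lay above all 3 controls, as they did in 8.84% of all genes. Of all genes tested, 2.36% were called in this comparison, 1.08% higher and 1.28% lower, and HSF1 ranked 150th by p-value. It no longer passed when the third control, replicate 3, was left out (2.37, adjusted p 0.063) and in a fit of these 6 libraries alone (2.63, adjusted p 0.147).

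At 8 days the translocated juveniles again did not overlap their controls, at a 3.04-fold ratio (log2 fold change 1.60, SE 0.48, interval 0.60 to 2.61), and the difference did not pass over all genes (p 0.00342, adjusted p 0.572). Only 1 gene, or 0.00389% of those tested, was called at this age, and 9.39% of genes lay higher without overlap. The effects at 60 and 8 days differed by 0.98 on the log2 scale (SE 0.67, interval -0.41 to 2.37, adjusted p 0.889, with 0.0777% of genes called), so a larger effect at 60 days was not shown.

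Among natural samples, deep adults had a 1.82-fold higher mean than shallow adults, with no overlap (log2 fold change 0.87, SE 0.47, interval -0.12 to 1.85, adjusted p 0.283). In this comparison 8.11% of all genes were called, 3.77% higher and 4.33% lower, and 10.7% were higher without overlap. The authors' deposited table gives 0.90 for this log2 fold change with an adjusted p of 0.107. Deep planulae had a 1.58-fold higher mean than shallow planulae, and here the groups overlapped (0.66, SE 0.47, interval -0.32 to 1.65, adjusted p 0.334), while 22.9% of all genes were called, 12.5% higher and 10.4% lower. That overlap depended on scaling. Unscaled CPM was 2331, 3670 and 3326 in deep planulae and 2122, 995 and 1351 in shallow planulae, without overlap. Leaving out TMM factors also moved the median log2 fold change of all genes from 0.09 to 0.54. Neither natural comparison of depth passed the threshold, and both intervals include more than a doubling as well as no change. The depth effects in adults and planulae differed by 0.20 (SE 0.66, interval -1.19 to 1.59, adjusted p 0.88, with 12.9% of genes called). The exact permutation test (2-sided) gave 0.1 for both translocation comparisons and for adults, the smallest p that 3 against 3 allows, and 0.2 for planulae.

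Some of these libraries stand apart from their groups in level or depth. Without shallow planula replicate 1, the highest of its group, the depth difference in planulae was 0.94 (adjusted p 0.23). Without deep adult replicate 3, the library with the fewest counts, that in adults was 0.66 (adjusted p 0.566).

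The mean of the 4 comparisons, a contrast added after the values were seen, was 1.43 on the log2 scale (SE 0.24, interval 0.93 to 1.93, adjusted p 0.000741), or 2.69-fold. By this contrast 13.9% of all genes were called, 7.26% higher, and HSF1 ranked 307th by p-value. A fold change above 0 in all 4 comparisons was found in 9.18% of genes. The means of the 4 pairs share no library, but they mix natural populations with an experimental move in chambers.

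**Figure D2:**
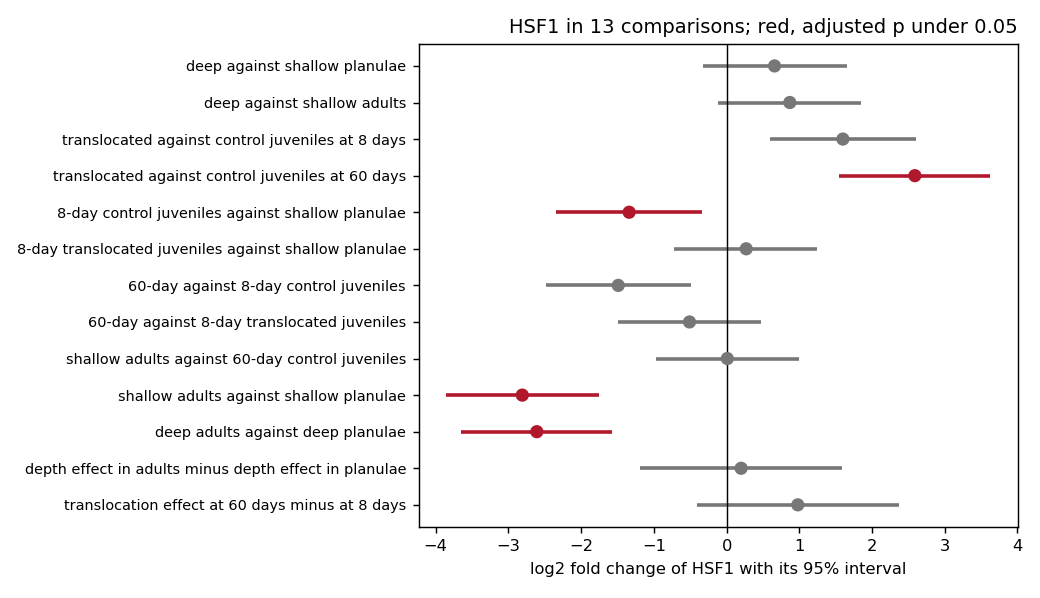
Log2 fold change of HSF1 (points) with its 95% interval (lines) in 13 contrasts of the fit to all 24 libraries; red marks an adjusted p under 0.05. The 4 depth contrasts lie between 0.66 and 2.59, and the contrasts of adults against planulae lie at -2.81 and -2.61.

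Along development, HSF1 fell between shallow planulae and 8-day control juveniles by 1.34 on the log2 scale (SE 0.48, interval -2.34 to -0.34, adjusted p 0.0321), a 2.53-fold lower level. In this step 39% of all genes were called, 21% higher and 18.1% lower. The call depended on scaling: without TMM factors the difference was -0.35 (adjusted p 0.497) and the libraries overlapped, with 2122, 995 and 1351 unscaled CPM in shallow planulae and 766, 1646 and 1081 in controls. It was also lost without 8-day control replicate 1 (adjusted p 0.129) or 3 (0.0826) and without shallow planula replicate 1 (0.12) or 3 (0.0598).

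The juveniles of the same origin at 45 m did not show that lower level. In 8-day translocated juveniles HSF1 was 0.27 above shallow planulae on the log2 scale (SE 0.47, interval -0.72 to 1.25, adjusted p 0.687, with 41.6% of genes called). Without TMM factors this became 1.2 (adjusted p 0.0265). Both steps share the planula libraries, so they are not independent.

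From 8 to 60 days HSF1 was lower in both lines of juveniles, short of the threshold in each. In controls the difference was -1.49 (SE 0.48, interval -2.49 to -0.49, p 0.00569, adjusted p 0.0606), where 8.51% of genes were called. It passed in DESeq2 (-1.52, adjusted p 0.0177) and without control replicate 1 of the 60-day group (-2.04, adjusted p 0.0285). In translocated juveniles it was -0.51 (SE 0.47, interval -1.49 to 0.47, adjusted p 0.586), where 7.41% of genes were called. Shallow adults and 60-day controls had nearly equal means (0.01, interval -0.97 to 1.0, adjusted p 0.985), in a comparison with 31.4% of genes called.

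Adults had less HSF1 than planulae at both depths. At 5 m adults had 7.03-fold lower HSF1 than planulae (-2.81, SE 0.50, adjusted p 0.00012), and 54.3% of all genes were called, 30.9% higher and 23.4% lower. At 45 m it was 6.11-fold lower (-2.61, SE 0.50, adjusted p 0.00033), with 44.6% of genes called, 23.9% higher and 20.7% lower. The authors' deposited table gives 2.82 and 2.54 for planulae against adults at the same depths, with adjusted p of 8.41e-13 and 1.89e-10. Without TMM factors the differences were -1.70 at 5 m (adjusted p 0.0026) and -2.13 at 45 m (adjusted p 0.000841).

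Reads of HSF1 may be shared with its neighbour. In the RefSeq annotation of the assembly jaStyPist1.2, gene0 (uncharacterized LOC111326392, a long non-coding RNA in the authors' table and protein-coding in RefSeq) is the next gene and overlaps HSF1. The use of strand in counting is not given in the sources used here, so reads of the overlap cannot be assigned to one or the other. Its level was 63.3, 53.6 and 78.1 CPM in deep adults, 54.5, 65.5 and 29.2 in shallow adults, and 156, 66.9 and 41.2 in 60-day controls. It was 181, 505 and 1597 CPM in 60-day translocated juveniles, 115, 237 and 183 in 8-day controls and 399, 668 and 974.9 in 8-day translocated juveniles. In deep planulae it stood at 549, 1084 and 1372 CPM, and in shallow planulae at 2382, 1939 and 2240.

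The counts of gene0 were 0.0946 to 0.461 times those of HSF1 in the 21 libraries outside the shallow planulae and 0.703 to 1.115 times in shallow planulae. Gene0 thus kept below HSF1 in all but 1 library, and its order between groups was not that of HSF1, since shallow planulae were highest. With translocation at 60 days gene0 rose by 3.11 (SE 0.64, adjusted p 0.0129), and at 8 days its difference was 1.93 (adjusted p 0.625). In planulae it was -1.13 from shallow to deep (adjusted p 0.182), opposite in sign to HSF1. From shallow planulae to 8-day controls it fell by 3.62 (adjusted p 0.000183).

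**Figure D3:**
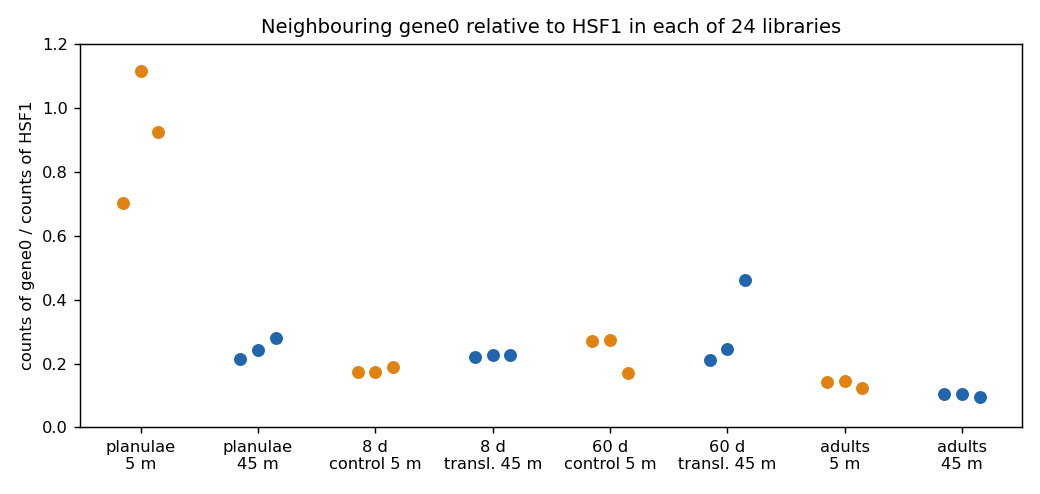
Counts of the neighbouring gene0 divided by counts of HSF1 in each of 24 libraries, by group; orange points are libraries from 5 m and blue points from 45 m. The 3 shallow planula libraries lie between 0.703 and 1.115 and all others at or below 0.461.

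A second gene carries a heat shock factor name (gene12617, heat shock factor protein-like). It had no count in any planula or 60-day juvenile library, and 28 counts in all in the 6 libraries of 8-day juveniles. Shallow adults had 0.0561, 0 and 2.85 CPM and deep adults 0.218, 40.7 and 9.92 CPM. It was therefore detected mainly in adults, with most of its counts in 1 library, and did not follow HSF1. The difference between deep and shallow adults did not pass (adjusted p 0.228), and that between deep adults and deep planulae did (higher, adjusted p 0.012), with no fold given as the planulae were at 0.

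Within groups, libraries with more HSF1 also held more RNA of certain chaperones. For each gene the deviation of log2 CPM from its group mean was taken over the 24 libraries and compared with that of HSF1. The measure is a description, as libraries of a group share handling, and the deviations of HSF1 had a correlation of -0.15 with those of log2 total counts and of -0.38 with those of log2 TMM factors (-0.11 and -0.48 for HSP70 gene23043). Gene0 was nearest (r = 0.94), and a pair of HSP70 genes came next, HSP70 (gene23043) and HSP70 A1 (gene23044), both at r = 0.94 and 2nd and 3rd of 25734 genes. These HSP70 genes fold newly made and damaged proteins, carry neighbouring identifiers and may share reads.

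HSP70 gene23043 had 31.8, 16.9 and 97.9 CPM in deep adults and 24.6, 39.2 and 10.6 in shallow adults. In 60-day juveniles it had 6.25, 40.5 and 315 CPM after translocation and 42.1, 5.74 and 6.39 in controls. At 8 days it had 74.4, 111 and 233 CPM after translocation and 7.72, 24.5 and 21.1 in controls. It stood at 38.8, 283 and 266 CPM in deep planulae and at 95.4, 7.46 and 43.2 in shallow planulae. The same library was highest for HSF1 and for this gene in 7 of 8 groups. Without the 60-day translocated juveniles, whose spread was widest, r was 0.92. Over the 12 juvenile libraries it was 0.95 and over the 12 libraries of planulae and adults 0.96.

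The next genes with informative names were RING finger protein 44 (gene12358, r = 0.90), the microtubule protein EML1 (gene19168, r = 0.90) and the BAG co-chaperone Samui (gene22160, r = 0.89). Further chaperones, picked by name, were DnaJ B5 (gene22162, r = 0.84, 31st), HSC71 (gene13952, r = 0.79, 55th), DnaJ B4 (gene22156, r = 0.79, 58th) and HSP90-beta (gene21159, r = 0.73, 136th). Genes of other kinds ranked among these, such as the vesicle coat protein SEC31 (gene15294, r = 0.85, 18th). Of all genes, 234 had r above 0.7. In the 60-day translocated juveniles HSC71 (gene13952) had 743, 1422 and 5171 CPM, HSP90-beta (gene21159) 759, 1214 and 1700, and Samui (gene22160) 1.55, 6.58 and 136. The order of the 3 libraries was that of HSF1 in each of these genes. Without that group r was 0.93 for Samui, 0.80 for DnaJ B5, 0.71 for HSC71, 0.66 for DnaJ B4 and 0.62 for HSP90-beta.

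**Figure D4:**
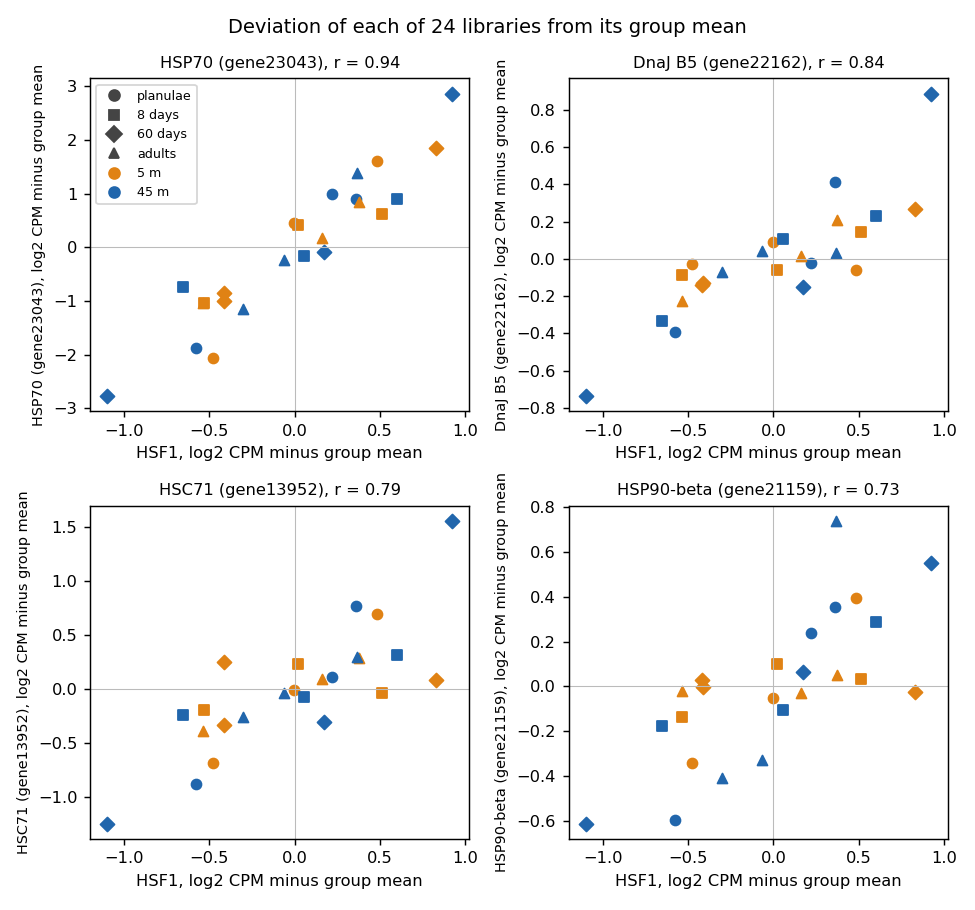
Deviation of log2 CPM from the group mean for HSF1 (x axis) and 4 chaperone genes (y axes), 1 point per library; shapes give the stage, orange 5 m and blue 45 m. The points rise together in HSP70 (r = 0.94), DnaJ B5 (0.84), HSC71 (0.79) and HSP90-beta (0.73), with 60-day translocated replicates at both ends.

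Most chaperone genes did not do this. Among 43 tested genes of the chaperone list (44 members, mostly cytosolic or mitochondrial by name, with DnaJ B9 and B11 of the endoplasmic reticulum among them), 6 (14%) had an r above 0.7, against 0.909% of all genes, and the median was 0 against -0.01 over all genes. Another HSC71 gene (gene12090) had r = -0.35. None of 17 chaperones of the endoplasmic reticulum, of 17 HSP70 12A genes, or of 21 genes named after regulators of HSF1 was above 0.7.

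Across depth the chaperones of the list were called in both directions, and few were called with HSF1. With translocation at 60 days 2 of the 43 rose, 4 fell and 37 did not pass, where 1.08% of all genes were higher and 1.28% lower. The median log2 fold change was -0.12 against -0.01 for all genes. The 2 that rose were DnaJ B4 (gene22156; 2.37, SE 0.41, adjusted p 0.00363) and DnaJ B5 (gene22162; 1.68, SE 0.30, adjusted p 0.00463), co-chaperones that hand substrates to HSP70. DnaJ B5 stood at 336, 504 and 1036 CPM in translocated juveniles and at 234, 177 and 176 in controls, and DnaJ B4 at 68.4, 186 and 336 against 38.9, 39.3 and 36.4, without overlap in either. Both genes lie near each other, with Samui (gene22160), in the RefSeq annotation. Among those that fell was a 97 kDa heat shock protein (gene28756), with 0 counts in the 3 translocated libraries and 0 to 24.6 CPM in controls, so the groups overlapped at 0. DESeq2 called 5 higher and 5 lower, while in a fit of these 6 libraries alone none of 41 tested passed in edgeR and 14 had an unadjusted p under 0.05. At 8 days none of the 43 passed in edgeR, 7 had an unadjusted p under 0.05, and 2 were called higher in DESeq2.

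In adults 2 chaperones were higher at 45 m, 1 was lower and 40 did not pass (median 0.19, all genes 0). Of all genes, 3.77% were higher and 4.33% lower there. DESeq2 called 5 chaperones higher and 2 lower. DnaJ B4 (gene22156) was higher in deep adults, with 37.3, 49.3 and 59.3 CPM against 14.6, 19.1 and 8.93 (1.78, SE 0.41, adjusted p 0.0107), and the 97 kDa heat shock protein gene28756 had 15.6 to 36.7 CPM in deep adults and 4 counts in all in shallow adults (adjusted p 0.000605). In planulae 3 chaperones were higher at 45 m, 8 were lower and 32 did not pass (median -0.23, all genes 0.09), where 12.5% of all genes were higher and 10.4% lower. The 11 calls became 4 without shallow planula replicate 2, 5 without deep planula replicate 2 and 6 without shallow planula replicate 3. Those higher included DnaJ B9 (gene15731; 38.2 ± 1.51 against 18.5 ± 4.04 CPM, adjusted p 0.000649), a co-chaperone of the endoplasmic reticulum, and HSC71 (gene12090; 151 ± 39.6 against 88.0 ± 7.78 CPM, adjusted p 0.00596). Those lower included HSP70 B2 (gene2826; 2.36 ± 0.435 against 10.6 ± 1.51 CPM, adjusted p 0.00942) and the mitochondrial chaperonin HSP60 (gene5471; 243 ± 9.72 against 560 ± 93.2 CPM, adjusted p 0.0165).

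**Figure D5:**
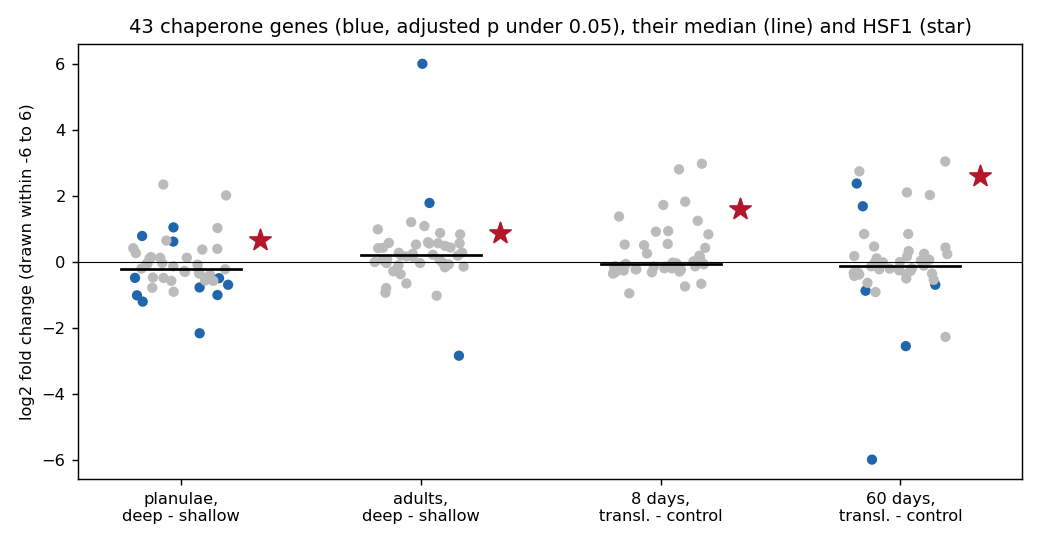
Log2 fold changes of the 43 tested chaperone genes in the 4 comparisons of 45 m with 5 m, blue where the adjusted p was under 0.05, with their median (black line) and HSF1 (red star). Values are drawn within -6 to 6, which moves gene28756 in adults and at 60 days; HSF1 lies above the median of the list in all 4, and chaperones lie on both sides of 0.

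The 7 members of the chaperone list whose deviations came nearest to HSF1 were chosen after their values were seen, so their counts are a description. Samui (gene22160, r = 0.89) is outside that list by its name and is not counted. With the 97 kDa heat shock protein gene4467 (r = 0.67) the 7 are HSP70 gene23043 and gene23044, DnaJ B5 and B4, HSC71 gene13952 and HSP90-beta. All 7 had fold changes above 0 at both juvenile ages and 5 of 7 in planulae and in adults. The median log2 fold change of all genes was 0.09 in planulae, 0 in adults, -0.03 at 8 days and -0.01 at 60 days. About as many genes thus lay above 0 as below it. The HSP70 pair may share reads, and DnaJ B4 and B5 lie near each other, so the 7 are not independent. No conclusion is drawn from these counts. For HSP70 gene23043 the log2 fold changes were 2.01 in planulae, 0.98 in adults, 2.97 at 8 days and 2.74 at 60 days, with adjusted p from 0.222 to 0.838. Over the mean of the 4 comparisons it was 2.17 (SE 0.58, adjusted p 0.017). Each HSP70 value had a wide spread between libraries, and no single comparison passed.

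In the step from shallow planulae to 8-day controls, 1 of 43 chaperones rose, 19 fell and 23 did not pass (median -0.61, all genes 0.16), where 21% of all genes were higher and 18.1% lower. DnaJ B4 (gene22156) fell from 787 ± 58.0 to 41.8 ± 16.7 CPM (adjusted p 4.89e-07) and DnaJ B5 (gene22162) from 1114 ± 61.4 to 226 ± 20.03 CPM (adjusted p 7.76e-06). DnaJ B13 (gene22551), known from motile cilia and sperm tails in mammals, fell from 418 ± 95.8 to 36.0 ± 2.40 CPM (adjusted p 6.17e-07). HSC71 gene13952 fell by 1.5 (adjusted p 0.0289) and HSP90-beta gene21159 by 1.31 (adjusted p 0.00298). Of 8 subunits of the chaperonin TCP-1, 4 fell, for example TCP-1 gamma (gene704; 132 ± 13.1 from 216 ± 4.58 CPM, adjusted p 0.0234), and 4 did not pass, among them TCP-1 epsilon (gene12037; 118 ± 10.1 against 119 ± 13.5 CPM, adjusted p 0.985). The summed cilia genes moved the same way in this step, and their part in it was not tested. Against shallow planulae, shallow adults had 27 of 43 chaperones lower and 6 higher (median -0.98, all genes 0.35), where 23.4% of all genes were lower and 30.9% higher. Both counts lean on scaling, as do the smaller changes of single genes, such as that of TCP-1 gamma. Without TMM factors the median of all genes was 1.14 in the step to 8-day controls and 1.46 in shallow adults. Calls of list members in comparisons with planulae of another stage were not counted without TMM factors.

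Chaperones of the endoplasmic reticulum, which in mammals are driven mainly by the unfolded protein response, were counted as a list of 17. In that step 6 were higher, 1 was lower and 10 did not pass, where 21% of all genes were higher and 18.1% lower. Protein disulfide isomerase A4 (gene20982) rose from 3.08 ± 0.948 to 59.1 ± 6.02 CPM (adjusted p 3.4e-08), another A4 gene (gene17294) from 12.7 ± 1.81 to 40.5 ± 2.87 CPM (adjusted p 0.000296), and an A3 gene (gene22325) from 3.62 ± 2.15 to 31.6 ± 10.3 CPM (adjusted p 0.000168). Across depth, 1 of 17 was higher in deep planulae, where 12.5% of all genes were. It was disulfide isomerase A4 gene2086 (31.0 ± 3.81 against 18.4 ± 4.33 CPM, adjusted p 0.0079). Calreticulin (gene8419) was higher in deep adults (31.7 ± 29.5 against 1.996 ± 0.229 CPM, adjusted p 0.0272) and lower in 60-day translocated juveniles (1.93 ± 0.634 against 41.7 ± 39.9 CPM, adjusted p 0.0389), with overlapping libraries in both. None of the 17 passed at 8 days in edgeR or DESeq2; the unadjusted p was under 0.05 for 0 in both, and for 4 in the compared libraries alone. In those smaller fits none passed in planulae, adults or at 60 days either, with 2, 1 and 3 at an unadjusted p under 0.05.

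The HSP70 12A and 12B genes encode distant relatives of HSP70, and every member of this list carries a 12A name. Of 17 such genes, 9 were higher in adults than in planulae at each depth, not necessarily the same 9, and none was lower. Of all genes, 30.9% were higher at 5 m and 23.9% at 45 m. In fits of planulae alone 7 of these genes had enough counts to be tested, and in fits of adults alone 16. For genes that entered through the adult libraries a lower level in adults could hardly be found, so the counts draw no conclusion on direction. Across depth 1 was higher in deep planulae (gene1630, 24.5 ± 11.5 against 2.42 ± 3.47 CPM, adjusted p 0.0117), where 12.5% of all genes were higher. There DESeq2 called 2 higher and 3 lower, and in the compared libraries alone none of 7 tested passed, with 4 at an unadjusted p under 0.05. In adults gene9887 was higher at 45 m, with 52.7 to 72.4 CPM against 2 counts in all in the shallow adults (adjusted p 2.7e-06). Another pair was lower in deep adults, gene19864 (adjusted p 0.018) and gene21363 (adjusted p 0.049), with overlapping libraries. None of the 17 passed in edgeR between translocated and control juveniles at either age, with 5 at an unadjusted p under 0.05 at 8 days and 1 at 60 days; DESeq2 called 0 and 1.

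The list of regulators holds genes named after proteins that act on HSF1 in mammals. Of the 21, 6 were higher and 2 lower in deep planulae and 13 did not pass (median 0.18, all genes 0.09), where 12.5% of all genes were higher and 10.4% lower. The deacetylase SIRT1 (gene17286), which in mammals prolongs DNA binding by HSF1, was at 37.6 ± 2.62 against 19.9 ± 2.14 CPM (adjusted p 0.000248). The acetyltransferases p300 (gene823; 210 ± 5.67 against 130 ± 10.9 CPM, adjusted p 0.00417) and CBP (gene822; 52.0 ± 5.77 against 30.01 ± 7.08 CPM, adjusted p 0.0156) were higher as well. Another CBP gene (gene15795) had 71.6 ± 9.12 against 81.2 ± 9.85 CPM (adjusted p 0.512). A 14-3-3 protein (gene13469), of the family that holds phosphorylated HSF1 in the cytoplasm of mammalian cells, was lower (292 ± 72.8 against 547 ± 82.99 CPM, adjusted p 0.00721). Another 14-3-3 gene (gene13472) had a higher mean in deep planulae, at 7.93 ± 8.31 against 0.249 ± 0.375 CPM, with few counts in shallow planulae. That gene had 10 counts in all in shallow planulae, and 3.58, 2.69 and 17.5 CPM in the deep libraries. All other 14-3-3 genes of the list had lower means in deep planulae. Among them 14-3-3 protein 2 (gene2520) had 423, 577 and 597 against 816, 950 and 915 CPM. In gene5427 the libraries overlapped, at 121, 144 and 159 against 180, 132 and 152 CPM.

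FBXW7, the ubiquitin ligase subunit that marks nuclear HSF1 for degradation in mammals, is the name of 6 genes in the list. Of these, 2 were called higher in deep planulae (gene13404 and gene60), where 12.5% of all genes were. In adults 1 was called higher and at 60 days 1, where 3.77% and 1.08% of all genes were. None was called lower across depth. Lower means at 45 m were found in planulae for gene16748 and for gene8450 (1.94 ± 0.426 against 3.40 ± 0.610 CPM, adjusted p 0.0814). At 60 days gene8450, gene6573, gene60 and gene23422 had lower means after translocation. FBXW7 gene13404 was higher at 45 m in planulae (110 ± 8.18 against 74.3 ± 12.3 CPM, adjusted p 0.00995) and was the 1 regulator called in adults (50.4 ± 10.8 against 33.5 ± 1.66 CPM, adjusted p 0.0188). FBXW7 gene16748 was the 1 regulator called at 60 days (41.5 ± 10.1 against 19.8 ± 1.33 CPM, adjusted p 0.0345). In the compared libraries alone none of the 21 passed in adults or at 60 days, with 1 and 3 at an unadjusted p under 0.05. At 8 days none passed in edgeR or DESeq2; the unadjusted p was under 0.05 for 0 in both, and for 1 in the compared libraries alone. From shallow planulae to 8-day controls 2 regulators rose, 8 fell and 11 did not pass, where 21% of all genes were higher and 18.1% lower. FBXW7 gene16748 fell from 134 ± 4.27 to 19.3 ± 1.16 CPM (adjusted p 2.04e-07). The mitotic kinase PLK1 (gene12875) rose from 6.42 ± 2.58 to 32.3 ± 3.76 CPM (adjusted p 2.52e-06), and a 14-3-3 protein (gene13472) from 0.249 ± 0.375 to 66.9 ± 12.7 CPM (adjusted p 2.51e-07).

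The binding protein HSBP1 (gene21877), which in mammals and worms binds the trimer of HSF1 and lowers its activity, did not pass in any of the 4 depth comparisons (adjusted p 0.454 in planulae, 0.823 in adults, 1 at 8 days and 0.946 at 60 days). It had 114, 155 and 181 CPM in 60-day translocated juveniles and 135, 142 and 201 in their controls. These libraries overlapped, while those of HSF1 did not. HSBP1 was lower in shallow adults than in shallow planulae (-1.42, adjusted p 0.00358), where 23.4% of all genes were lower. This difference leans on scaling. Without TMM factors the median log2 fold change of all genes moved from 0.35 to 1.46. HSBP1 was not compared in that setting, so no likeness to HSF1 is drawn from it. Its deviations within groups had r = 0.10 with those of HSF1.

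Over the 24 libraries as they stand, groups included, the 5 named genes most like HSF1 in log2 CPM were SEC31 (gene15294, r = 0.913), DCN1-like protein 4 (gene944, r = 0.910), the ubiquitin ligase arih1 (gene13802, r = 0.902), DnaJ B5 (gene22162, r = 0.90) and the transcription factor ATF-2 (gene12240, r = 0.90). SEC31 is a coat protein of vesicles that leave the endoplasmic reticulum, and DCN1-like proteins help to attach NEDD8 to cullins. By Spearman correlation all 5 were among the 50 genes most like HSF1, and 79 genes had r above 0.8. These values share the contrast of planulae with adults. DnaJ B5 alone of the 5 was called with translocation at 60 days, where SEC31 had 85.3, 197 and 472 CPM against 93.6, 78.1 and 97.5 in controls (1.49, adjusted p 0.0598) and DCN1-like protein 4 had 56.8, 111 and 151 against 41.9, 39.3 and 59.8 (1.18, adjusted p 0.0513). In both, the lowest translocated library lay within the range of the controls.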

How the data were processed

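Poly(A) RNA of whole corals was sequenced, with molecular identifiers added before amplification, per the labels' protocols. Per the submitters' processing notes, the authors used cutadapt, Trimmomatic, FastQC, MultiQC and DESeq2; aligner and counter, genome build, strandedness and whether molecular identifiers were collapsed are not stated there or elsewhere in the labels. The authors deposited raw read counts per gene, which were the values analysed; all columns matched a labelled library. Gene names and lengths, and the log2 fold changes and adjusted p-values that the authors computed for adults and planulae, came from a second deposited table, per the file headers. Its FPKM and FPM (normalised signal) columns, deposited by the authors, were not used for any test. Its column for deep against shallow planulae repeats, for HSF1, the values of deep planulae against deep adults and was left out.

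The analysis ran in edgeR 4.0.16 under R 4.3.3: filterByExpr (25735 genes), TMM, 1 quasi-likelihood fit of 24 libraries with 16 residual degrees of freedom, 2-sided contrasts, Benjamini-Hochberg correction across those genes, called at 0.05. Correlations used log2 CPM with a prior count of 2. Alternatives were DESeq2 1.42.0, RLE scaling, no scaling, no filter, the compared libraries alone, a replicate block and leaving out each library. The scripts were tested on simulated data. Named list members were up to 3 per list and comparison with the smallest p among those called, at 10 CPM or more in either group; genes printed beyond that, such as HSP60 (gene5471), TCP-1 gamma (gene704) and epsilon (gene12037), CBP gene15795, FBXW7 gene60 and gene8450 and the chaperones that deviate with HSF1, were chosen after their values were seen. HSF1 and all lists were chosen with earlier results of these data known. No 2 libraries of a group agreed within sampling noise. No promoter or protein sequence was analysed here.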

Additional observations from a re-analysis of the deposited data

Results flagged for a closer look

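The difference between the depth effects of adults and planulae did not pass for HSF1, and passed for 16 list members (adult minus planula log2 fold change, edgeR quasi-likelihood test, Benjamini-Hochberg adjusted over all genes, 12.9% of which passed). Of 43 chaperones tested, 8 had a higher and 2 a lower effect in adults. The difference was 8.59 for the 97 kDa heat shock protein gene28756 (adjusted p 0.00361; 8.98 in adults and 0.39 in planulae), 2.12 for HSP10 gene5472 (0.0332; 1.2 and -0.91), 1.87 for DnaJ B4 gene22156 (0.0343; 1.78 and -0.09) and 1.64 for HSP60 gene5471 (0.0321; 0.43 and -1.21). It was 1.6 for prostaglandin E synthase 3 gene19219 (0.015; 0.59 and -1.01), 1.58 for TCP-1 beta gene4146 (0.0132; 0.56 and -1.02), 0.76 for HSP70 14-B gene4135 (0.0444; 0.55 and -0.21) and 0.70 for stress-induced-phosphoprotein 1 gene8829 (0.0492; 0.21 and -0.49). The lower effects were -1.15 for DnaJ B9 gene15731 (0.00753; -0.11 and 1.04) and -1.16 for HSC71 gene12090 (0.00869; -0.38 and 0.78). Of 17 chaperones of the endoplasmic reticulum list, calreticulin gene8419 passed with 4.56 (0.0408; 3.98 and -0.58). Of 21 regulators, 1 was higher and 4 were lower: 1.28 for the 14-3-3 protein 2 gene2520 (0.0205; 0.53 and -0.75), -0.77 for SIRT1 gene17286 (0.0168; 0.15 and 0.92), -0.85 for p300 gene823 (0.0178; -0.16 and 0.69), -1.24 for CBP gene822 (0.0161; -0.45 and 0.79) and -4.47 for the 14-3-3 protein gene13472 (0.00597; 0.50 and 4.97). The values of gene28756 and gene13472 rest on groups with few counts, so their size is not a bound.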

How the results depend on the processing

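Of 226 HSF1 values under alternatives, 204 kept direction and side of the threshold. Without TMM factors the step from shallow planulae to 8-day controls was -0.35, that to translocated juveniles 1.2, the step from 8 to 60 days in controls -1.54, adults against planulae -1.70 and -2.13, and the adult minus planula depth effect -0.44; that setting moved the median of all genes to 0.54 in planulae and 1.14 in the first step. In DESeq2 the 8 to 60 day step in controls was -1.52. In the 6 libraries alone the 60-day translocation effect was 2.63. Replicate numbers did not pair the samples (same-numbered deviations correlated at -0.13 to 0.26); with a replicate block, shallow adults against 60-day controls were -0.01, and the 60-day effect was 2.48 (adjusted p 0.0184). Chaperones called were 11 in planulae (7 without scaling), 3 in adults (7 in DESeq2, 1 in the compared libraries, 5 with the replicate block), 6 at 60 days (10 in DESeq2, 0 in the compared libraries) and 0 at 8 days (2 in DESeq2). Leaving out each library gave 4 to 10, 2 to 9 (5 without deep adult replicate 1, 9 without deep adult replicate 2), 4 to 6 and 0 to 0 of them. For HSF1 it gave 0.46 to 0.94 for planulae, 0.64 to 1.06 for adults, 1.26 to 1.89 at 8 days, 2.04 to 3.12 at 60 days, 1.29 to 1.56 for the mean of the 4, -0.08 to 0.40 and 0.44 to 1.52 for the differences between effects, -1.62 to -1.06 and -0.07 to 0.54 for planulae to 8-day controls and translocated, -2.04 to -1.21 and -1.06 to -0.13 from 8 to 60 days, -0.19 to 0.56 for adults against 60-day controls, -3.02 to -2.54 and -2.85 to -2.43 for adults against planulae, and F from 13.18 to 19.79. The causes were not tested, nor was it tested whether 3 libraries a group or sequencing depth limits the precision.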
